A study of Mus musculus with 10 samples.

Results

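Sarcomeric myosin heavy chains are the motor proteins of the thick filament in striated muscle, and they were followed here through 8 genes chosen by name: Myh4, Myh1, Myh2, Myh7, Myh6, Myh7b, Myh3 and Myh8. All 8 were found among the 54232 genes of the deposited table, and all 8 lay above the limit on expression that left 14289 genes for testing. RNA had been sequenced from the gastrocnemius, a calf muscle, of 5 homozygous desmin knock-out mice (Des -/-) and 5 wild-type mice (Des wt/wt), all given as strain B6J.129Sv-Destm1Cba/Cscl and, in the methods, as 3 months old and littermates. The targeted Des allele is not restricted to muscle fibers, so every cell of the knock-out animals carried it, and a figure legend of the study names the plantaris together with the gastrocnemius. The methods also speak of pooled muscle RNA, whereas the table lists the mice separately, so that each mouse was taken as 1 replicate. Values are rlog values, log2-scale expression values of DESeq2 that correct for library size and pull every gene towards its own average. Differences on this scale are smaller than log2 fold changes of read counts, above all for weakly expressed genes, and the sequencing depth behind each value is unknown.

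Each skeletal muscle fiber is characterised by the myosin heavy chain it contains, because the isoform sets the speed of contraction and the use of ATP. Limb muscles of adult mice contain a slow isoform, encoded by Myh7, and the fast isoforms IIa, IIx and IIb, encoded by Myh2, Myh1 and Myh4 in the order of rising speed. The embryonic isoform Myh3 and the perinatal isoform Myh8 are used by developing muscle, are largely replaced by adult isoforms after birth, and come back in regenerating fibers and in the intrafusal fibers of muscle spindles. Myh6 encodes the α-cardiac isoform of the atria and of the adult mouse ventricle, and Myh7b is an ancient relative that is transcribed in muscle and hosts a microRNA.

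In the desmin knock-out muscle, Myh3 was 4.77-fold higher on the rlog scale, Myh8 1.80-fold higher and Myh2 1.70-fold higher, and Myh4 was 1.63-fold lower. The other members, Myh1, Myh7, Myh6 and Myh7b, did not pass the test. Of the 8 members, 3 were thus called higher and 1 lower, by limma's moderated test at a threshold of 0.05 for the p adjusted across the whole table. Over all tested genes, 7.70% were called higher, 5.99% lower and 13.7% in either direction. The values of the 5 knock-out and the 5 wild-type mice did not overlap for 3 members, Myh3, Myh8 and Myh4, compared with 14.4% of all tested genes. Of these members 2 were higher and 1 was lower, against 7.45% and 6.97% of all tested genes.

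**Figure D1:**
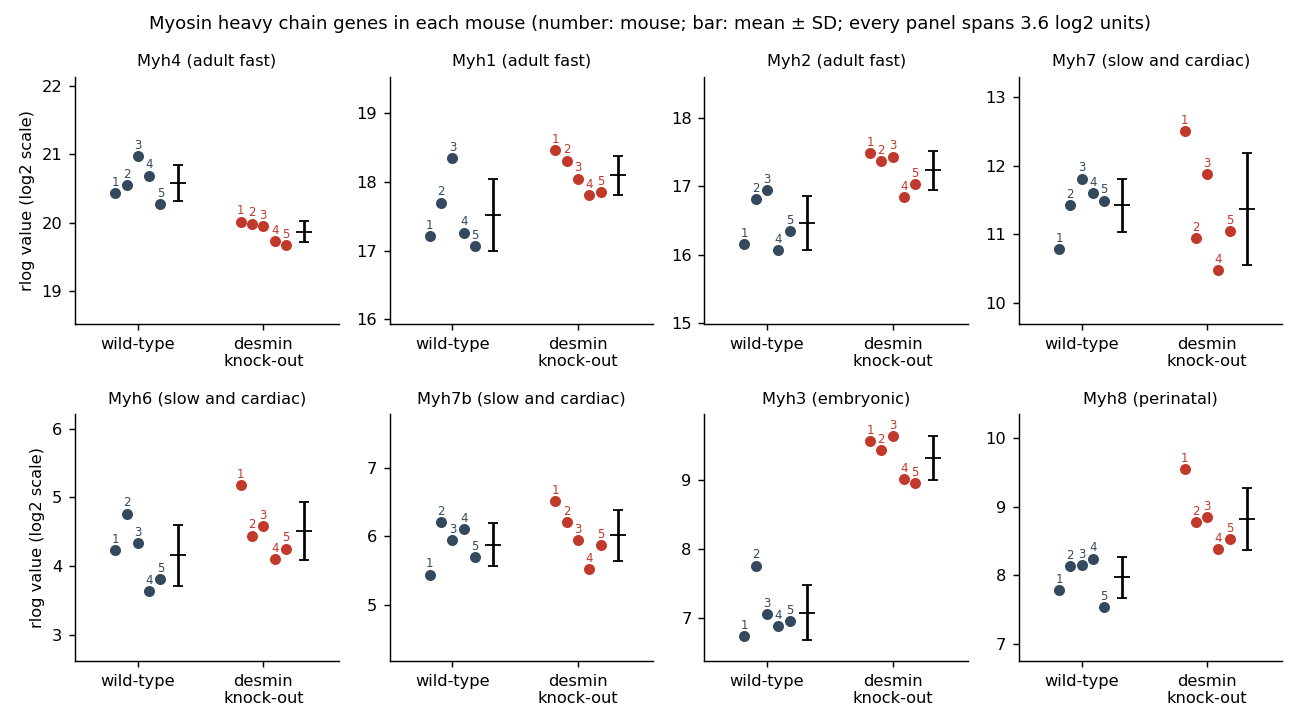
rlog values (vertical axis, log2 scale) of each of the 8 genes in 5 wild-type and 5 desmin knock-out mice; numbers name the mice, and bars give the mean ± SD of each genotype. All knock-out points lie above all wild-type points for Myh3 and Myh8 and below them for Myh4, while the knock-out points of Myh7 spread from 10.48 to 12.50.

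**Figure D2:**
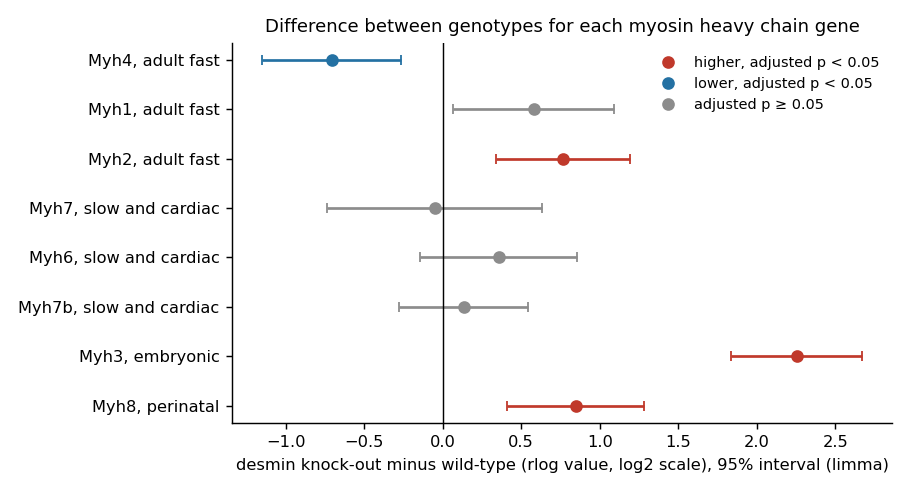
Knock-out minus wild-type difference of the rlog value (horizontal axis, log2 scale) with its 95% interval from limma for each of the 8 genes, coloured by the call. Myh3 stands at 2.25, Myh8 and Myh2 are above 0, Myh4 is below 0, and the intervals of Myh7, Myh6 and Myh7b include 0.

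The genotypes and the tissue were checked first. Des itself had rlog values between 16.10 and 17.74 in wild-type mice and between 11.76 and 11.89 in desmin knock-out mice, a difference of -4.73 ± 0.25 (SE, n = 5 per genotype; limma, adjusted p = 1.54e-07). Markers of skeletal muscle were high in all mice, with Acta1, skeletal α-actin, between 19.74 and 21.18. None of the 7 tested skeletal muscle markers was called by limma, with 1 higher and 1 lower at an unadjusted p under 0.05. A large part of all tested genes passed that threshold, since an unadjusted limma p of 0.0509 (Myh11) became an adjusted p of 0.183. The markers leaned lower, with a median difference of -0.37 compared with -0.0029 over all tested genes. For Ckm and Tnnt3 all knock-out mice lay below all wild-type mice, the case for 6.97% of all tested genes. Mb (0.32) and Neb (0.11) went the other way. Wild-type mouse 3 stood apart. Its mean correlation with the other mice of its genotype across tested genes was 0.982, compared with at least 0.989 for the other mice, and its summed linear values were 1.48 times the median of all mice. Without it, 1335 genes were called higher and 1159 lower in place of 1100 and 856. Below, calls of members and of Myhas, and list counts and medians, are given with and without it where they changed. Single list and marker genes, unadjusted counts and summed levels are given with all mice only.

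The 8 members lie in 3 places of the mouse genome (GRCm38). Myh3, Myh2, Myh1, Myh4 and Myh8 follow each other on the forward strand of chromosome 11, in a stretch of 293.3 kb that ends with Myh13. Myh3 (ENSMUSG00000020908) lies at chr11:67078300-67102291, Myh2 (ENSMUSG00000033196) at chr11:67171027-67197517, Myh1 (ENSMUSG00000056328) at chr11:67200052-67224575, Myh4 (ENSMUSG00000057003) at chr11:67238029-67260446 and Myh8 (ENSMUSG00000055775) at chr11:67277124-67308634. Myh6 (ENSMUSG00000040752, chr14:54941921-54966927) and Myh7 (ENSMUSG00000053093, chr14:54970684-54994626) are neighbours on the reverse strand of chromosome 14, separated by 3.757 kb. Myh7b (ENSMUSG00000074652) stands alone at chr2:155611212-155634307 on the forward strand. The isoforms are similar in sequence, and how reads that match several of them were treated is not given in the sources used here.

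The promoters of the chromosome 11 members are shown because these genes moved in different directions although 4 of the promoters share runs of identical bases. Sequences are those of RefSeq (GRCm38.p6, forward strand, within the 250 bases before each RefSeq start, which can differ from the gene start given above), and capitals mark runs of at least 12 bases found in at least 3 of the 5 promoters. For Myh3, in which no such run was found, the last 50 bases before the start are printed, and capitals mark the letters TATAAAA.
Myh2, chr11:67170887-67170926: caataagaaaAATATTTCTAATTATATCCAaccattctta
Myh1, chr11:67199876-67199966: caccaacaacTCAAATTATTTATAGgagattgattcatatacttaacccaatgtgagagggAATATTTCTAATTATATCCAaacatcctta
Myh4, chr11:67237615-67237678: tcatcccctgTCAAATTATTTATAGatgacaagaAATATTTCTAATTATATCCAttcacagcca
Myh8, chr11:67277010-67277093: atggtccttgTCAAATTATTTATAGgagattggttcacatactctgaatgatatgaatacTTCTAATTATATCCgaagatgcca
Myh3, chr11:67078250-67078299: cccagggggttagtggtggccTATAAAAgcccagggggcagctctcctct
The run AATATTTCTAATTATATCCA was shared by Myh2, Myh1 and Myh4, the run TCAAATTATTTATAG by Myh1, Myh4 and Myh8, and the core TTCTAATTATATCC by all 4 of these genes. Searched on both strands, the core was found in 4 of 32851 promoter windows of the same length (0.0122%), those of these 4 genes, and each of the longer runs in 3 windows (0.00913%). The genes that carry the core include one that fell, Myh4, 2 that rose, Myh2 and Myh8, and one that was not called, Myh1. The E-box CANNTG, the letters bound by myogenic regulatory factors, was present in the windows of Myh4, Myh3 and Myh8 but not of Myh1 and Myh2, against 66.2% of all windows. The MCAT letters CATTCC, a motif of TEAD factors, were present in those of Myh4 and Myh1, against 12.6% of all windows. TATAAAA was present in those of Myh4, Myh1 and Myh3, against 4.98% of all windows. These letters describe the windows only, and binding was not measured.

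Among the adult fast isoforms, Myh4, which encodes isoform IIb of the fastest glycolytic fibers, was the member with the highest level and the only one that was called lower in the desmin knock-out muscle. In wild-type mice 1 to 5 its rlog values were 20.43, 20.55, 20.97, 20.69 and 20.27, and in desmin knock-out mice 1 to 5 they were 20.02, 19.99, 19.95, 19.73 and 19.68. All 5 knock-out mice thus lay below all 5 wild-type mice, with a gap of 0.25 between the nearest mice. The difference was -0.71 ± 0.21 (SE, n = 5 per genotype; 95% interval -1.15 to -0.26; limma, adjusted p = 0.0360), and the exact two-sided permutation test gave p = 0.00794, the smallest value that 5 against 5 mice allow. By the mean rlog value, Myh4 was the 2nd of the tested genes in wild-type and the 5th in desmin knock-out muscle. The call did not hold when any 1 of the 5 knock-out mice or wild-type mouse 1, 2 or 4 was left out (adjusted p of 0.0570 to 0.105), and with quantile normalization the difference shrank to -0.36 (adjusted p = 0.161). Without wild-type mouse 3, which had the highest value, it was -0.61 (adjusted p = 0.0184), and over 18 alternatives the adjusted p ranged from 0.00193 to 0.161.

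Myh2, which encodes isoform IIa of fast oxidative fibers, was higher in the desmin knock-out muscle. Its rlog values were 16.16, 16.81, 16.94, 16.07 and 16.34 in wild-type mice 1 to 5 and 17.48, 17.37, 17.43, 16.84 and 17.03 in desmin knock-out mice 1 to 5. Of the knock-out mice, 4 of 5 lay above all wild-type mice, and mouse 4 lay below wild-type mouse 3 only. The difference was 0.77 ± 0.20 (SE; 95% interval 0.34 to 1.19; limma, adjusted p = 0.0195; exact permutation p = 0.0159). Without knock-out mouse 1, 2 or 3 it was 0.70, 0.73 or 0.72, and the adjusted p rose to values between 0.0542 and 0.0562, within a range of 2.47e-04 to 0.0650 over 18 alternatives.

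Myh1, which encodes isoform IIx and lies between both genes on the chromosome, had rlog values of 17.21, 17.70, 18.35, 17.26 and 17.07 in wild-type mice 1 to 5. In desmin knock-out mice 1 to 5 they were 18.46, 18.31, 18.05, 17.81 and 17.85. Wild-type mouse 3 lay above 4 of the 5 knock-out mice, and each of the other 4 wild-type mice lay below all of them. The difference of 0.58 ± 0.24 (SE; 95% interval 0.07 to 1.09) did not pass the test over all genes (limma, adjusted p = 0.133; exact permutation p = 0.0635). Without wild-type mouse 3 it was 0.79 (adjusted p = 0.00524), and with quantile normalization it was 0.85 (adjusted p = 7.04e-04), so that the call of Myh1 depended on this mouse and on the scaling (adjusted p of 7.04e-04 to 0.268 over 18 alternatives).

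The balance between 2 isoforms within a mouse does not depend on a scaling that all its genes share, and 7 pairs were therefore compared by the difference of their rlog values in each mouse. The difference of Myh2 minus Myh4 was between -2.89 and -2.52 in desmin knock-out mice and between -4.62 and -3.74 in wild-type mice. That of Myh1 minus Myh4 was between -1.92 and -1.56 in desmin knock-out mice and between -3.43 and -2.62 in wild-type mice. Both balances were shifted away from Myh4 in every knock-out mouse, without overlap between the genotypes. The shift was 1.47 for Myh2 against Myh4 and 1.29 for Myh1 against Myh4, each with an exact permutation p of 0.00794 and an adjusted p of 0.0185 over the 7 pairs. It was 1.35 and 1.22 after quantile normalization, and it held without wild-type mouse 3 with 1.49 and 1.40 (adjusted p = 0.0370). Myh2 against Myh1 shifted by 0.19 (exact permutation p = 0.214, adjusted p = 0.269), a difference within the spread between mice.

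To compare levels between genes, the value 2 to the power of the rlog value was divided by the exonic length in kb. On this per-kb scale the members had the order Myh4, Myh1, Myh2, Myh7, Myh3, Myh8, Myh7b and Myh6 in both genotypes. Neighbours in that order did not overlap within a genotype, except Myh3 and Myh8 in wild-type mice, in which Myh3 was above Myh8 in 2 of 5 mice. The annotated exons of Myh8 add up to 11772 bp, whereas its principal transcript has 6149 bp. With the length of the principal transcript, Myh8 (5.35, log2 scale, per kb) was above Myh3 (4.48) in wild-type muscle and below it in desmin knock-out muscle (6.20 compared with 6.74).

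As a share of the summed per-kb level of the 8 genes, Myh4 made up 85.8% ± 2.52 (SD, n = 5) in wild-type and 70.7% ± 1.97 in desmin knock-out muscle. Myh1 made up 9.85% ± 1.97 in wild-type and 19.6% ± 1.63 in desmin knock-out muscle, and Myh2 4.24% ± 0.865 and 9.55% ± 0.784. None of these 3 shares overlapped between the genotypes. Myh1 and Myh2 together took 10.9% to 17.0% in wild-type mice and 26.6% to 31.7% in desmin knock-out mice. The 3 adult fast genes jointly accounted for 99.66% to 99.91% in the single mice. The summed per-kb level of all 8 genes (log2) was 18.22 ± 0.29 (SD) in wild-type and 17.79 ± 0.19 in desmin knock-out mice, with overlapping values. In bulk muscle RNA, fewer fibers of one type and less of its RNA per fiber cannot be told apart.

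**Figure D3:**
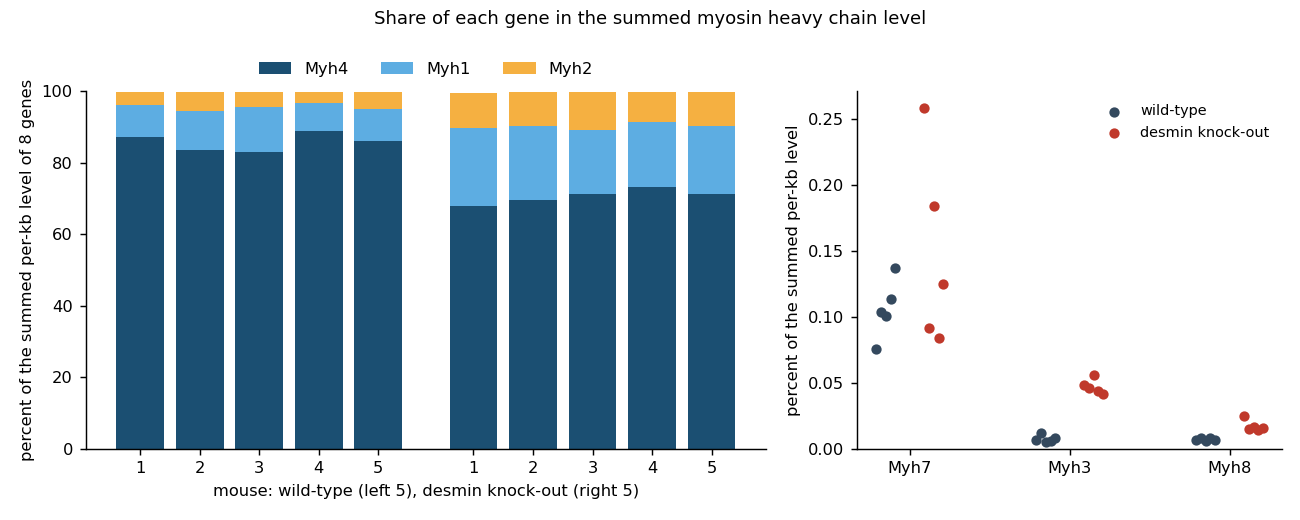
Left, share of Myh4, Myh1 and Myh2 in the summed per-kb level of the 8 genes (vertical axis, percent) as stacked bars, 1 bar per mouse; right, the shares of Myh7, Myh3 and Myh8 in each mouse (percent, axis from 0). The Myh4 part spans 82.9% to 89.0% in wild-type and 68.0% to 73.3% in desmin knock-out mice, and only the Myh7 points overlap between the genotypes in the right panel.

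The slow isoform did not pass the test. Myh7, which encodes the slow and β-cardiac isoform, had rlog values of 10.78, 11.42, 11.81, 11.60 and 11.49 in wild-type mice 1 to 5 and of 12.50, 10.94, 11.88, 10.48 and 11.04 in desmin knock-out mice 1 to 5. Knock-out mouse 1 had the highest and knock-out mouse 4 the lowest value of all 10 mice, so that the knock-out values enclosed the wild-type values. The difference was -0.05 ± 0.32 (SE; 95% interval -0.74 to 0.63; limma, adjusted p = 0.933), an interval that leaves room for a change in either direction. The SD of Myh7 among the knock-out mice, 0.81, was at the 99.95th percentile of the knock-out SDs of all tested genes. As a share of the summed per-kb level, Myh7 made up 0.149% ± 0.073 in desmin knock-out and 0.106% ± 0.022 in wild-type muscle, and the difference of 0.042 percentage points was 0.015 without knock-out mouse 1 and 0.018 with quantile normalization. Of the pairs with Myh7, Myh7 against Myh4 shifted by 0.66 (exact permutation p = 0.103, adjusted p = 0.181), Myh7 against Myh6 by -0.41 (adjusted p = 0.269) and Myh7b against Myh7 by 0.18 (adjusted p = 0.540). With 1 mouse left out, these shifts ranged from 0.41 (without knock-out mouse 1) to 0.84 (without knock-out mouse 4), from -0.59 (without wild-type mouse 1) to -0.23 (without wild-type mouse 4) and from 0.030 (without knock-out mouse 2) to 0.34 (without knock-out mouse 1). The adjusted p was at least 0.0556 in all these cases by the exact permutation test, and quantile normalization gave 0.37, -0.28 and 0.048.

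The other cardiac and ancient members were low. Myh6 had rlog values between 3.64 and 4.77 in wild-type and between 4.10 and 5.18 in desmin knock-out mice, a difference of 0.36 ± 0.23 (SE; 95% interval -0.14 to 0.85; limma, adjusted p = 0.345). Myh7b was between 5.44 and 6.21 in wild-type and between 5.52 and 6.51 in desmin knock-out mice, a difference of 0.13 ± 0.19 (SE; 95% interval -0.28 to 0.54; adjusted p = 0.689). Of the cardiac muscle markers, Nppa, Nppb and Myl7, which encode natriuretic peptides and the atrial regulatory light chain, had rlog values of at most 0.61 in every mouse. Tnni3, cardiac troponin I, was low but higher in desmin knock-out mice by 0.52 ± 0.13 (SE; adjusted p = 0.0158).

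Myh3, which encodes the embryonic isoform, had the largest difference of the 8 genes. Its rlog values were 6.73, 7.76, 7.05, 6.88 and 6.95 in wild-type mice 1 to 5 and 9.57, 9.44, 9.65, 9.02 and 8.96 in desmin knock-out mice 1 to 5. The lowest knock-out mouse lay 1.20 above the highest wild-type mouse. The difference was 2.25 ± 0.19 (SE, n = 5 per genotype; 95% interval 1.84 to 2.67; limma, adjusted p = 5.89e-06; exact permutation p = 0.00794). It was the 6th largest rise among the 14289 tested genes, and only 0.084% of them had a larger absolute difference. The call held in each of 18 alternative analyses, with differences between 1.93 and 2.43 and adjusted p-values of at most 1.22e-04.

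Myh8, which encodes the perinatal isoform that follows the embryonic one in development, also rose, but by less. In wild-type mice 1 to 5 it had rlog values of 7.78, 8.14, 8.15, 8.25 and 7.54, and in desmin knock-out mice 1 to 5 values of 9.55, 8.78, 8.85, 8.38 and 8.53. The genotypes did not overlap, with a gap of 0.13, and knock-out mouse 1 lay well above the other knock-out mice. The difference was 0.85 ± 0.20 (SE; 95% interval 0.41 to 1.28; limma, adjusted p = 0.0134; exact permutation p = 0.00794). Without knock-out mouse 1 it was 0.66 (adjusted p = 0.0218), and the call held in each of the 18 alternatives (adjusted p of 0.00719 to 0.0468).

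The balance of both developmental isoforms was tested directly. Myh3 minus Myh8 was -1.05, -0.38, -1.09, -1.37 and -0.59 in wild-type mice 1 to 5 and 0.02, 0.66, 0.80, 0.64 and 0.43 in desmin knock-out mice 1 to 5. The rlog value of Myh8 was thus the higher one in every wild-type mouse, and that of Myh3 in every knock-out mouse. The balance shifted towards the embryonic isoform by 1.41 (exact permutation p = 0.00794, adjusted p = 0.0185 over the 7 pairs). Both isoforms remained rare beside the adult ones. Together they made up 0.0147% ± 0.0031 (SD) of the summed per-kb level in wild-type and 0.0644% ± 0.0077 in desmin knock-out muscle. The exonic length of Myh8, 11772 bp, lowers its part of this sum, since its principal transcript has 6149 bp. Myh3 made up 0.0472% in desmin knock-out muscle, compared with 0.149% for the slow isoform Myh7.

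The knock-out mice kept a similar order over several members, whereas the wild-type mouse with the highest value differed between members. Knock-out mouse 1 had the highest value of all 10 mice for 6 of the 8 members, namely Myh1, Myh2, Myh7, Myh6, Myh7b and Myh8. Knock-out mice 4 and 5 were the lowest knock-out mice for 7 of the 8 members, all but Myh7. Ttn, the gene of the giant sarcomere protein titin, which is no member, likewise had rlog values of 18.55 in knock-out mouse 1 and of 17.82 and 17.85 in mice 4 and 5. The slope of the centred values on transcript length, per doubling of length, was 0.051, -0.00074, 0.0017, -0.0078 and -0.014 in knock-out mice 1 to 5. In wild-type mice 1 to 5 it was 0.029, 0.052, -0.113, -0.045 and 0.047. Such slopes were thus no trait of the knock-out mice, and the steepest was that of wild-type mouse 3. The slope on GC content, per 10 percentage points, was also steepest in wild-type mouse 3, with 0.286. After removal of the trends on length and GC content from each mouse, the calls of all 8 members were the same, with differences of 2.27 for Myh3, 0.86 for Myh8, 0.78 for Myh2 and -0.70 for Myh4.

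Genes that work with the fast isoforms were on the lower side. Of 12 adult fast sarcomere genes, all tested, 3 fell, none rose and 9 were not called by limma. All 12 differences were below 0. The median difference was -0.43, and it shrank to -0.27 without wild-type mouse 3. It compared with -0.0029 over all tested genes and with -0.37 over the 7 skeletal muscle markers. Tnnt3 and Tnnc2 belong to both lists. The genes that fell were Mybpc2, fast myosin-binding protein C (-1.05 ± 0.19 SE, adjusted p = 0.00258), Actn3, the α-actinin of fast Z-discs (-0.97 ± 0.25, adjusted p = 0.0196), and Mylk2, the kinase of the skeletal regulatory light chain (-0.45 ± 0.12, adjusted p = 0.0255). Wild-type mouse 3 had the highest value of its genotype for 11 of the 12 genes, all but Mylk2. Without it, 3 genes were called lower and all 12 differences were still below 0.

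Of 12 adult slow sarcomere genes, all tested, 6 rose, 1 fell and 5 were not called, with a median difference of 0.54. Wild-type mouse 3 had the highest value of its genotype for 10 of these 12 genes too. Without it, 8 were called higher and 1 lower, and the median was 0.65. Tnnt1, slow skeletal troponin T, rose by 1.70 ± 0.20 (SE, adjusted p = 8.53e-05), Casq2, the calcium store protein of slow and cardiac muscle, by 1.00 ± 0.19 (adjusted p = 0.00279), Actn2, the α-actinin of all fibers, by 0.83 ± 0.18 (adjusted p = 0.00638) and Tnni1, slow troponin I, by 0.91 ± 0.21 (adjusted p = 0.0103). The others that rose were Myoz2 and Mybpc1. Because Actn2 is found in all fibers, not every gene of this list marks slow fibers. Myl3, the slow essential light chain that pairs with Myh7, went the other way and fell by 1.00 ± 0.24 (SE, adjusted p = 0.0143). Myl2, the slow regulatory light chain, differed by 0.13 (adjusted p = 0.693) and Tpm3, slow tropomyosin, by 0.0056 (adjusted p = 0.991). For 5 of the 12 genes, Tnnt1, Tnni1, Tnnc1, Tpm3 and Atp2a2, knock-out mice 1 and 3 were the highest knock-out mice, as for Myh7. This was noticed after the values had been seen. Tpm3 had values of 12.25 and 11.79 in these mice and of 11.25 to 11.57 in the other knock-out mice.

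Of 12 developmental and regeneration genes, all tested, 6 rose, 2 fell and 4 were not called, with a median difference of 0.90. Without wild-type mouse 3, 7 were called higher and 1 lower, and the median was 0.94. Mymk and Mymx, whose products fuse myoblasts, rose by 1.93 ± 0.20 (SE, adjusted p = 2.11e-05) and 1.35 ± 0.14 (adjusted p = 2.94e-05). Chrng, the fetal γ subunit of the acetylcholine receptor, rose by 1.85 ± 0.22 (adjusted p = 9.66e-05), and Tnnt2, the troponin T of the heart and of embryonic skeletal muscle, by 1.32 ± 0.17 (adjusted p = 1.33e-04). Myl4, the embryonic light chain, and Myog, myogenin, also rose, by 1.31 and 1.23. With all mice included, the 2 that fell were Actc1, the cardiac actin of fetal muscle (-0.83 ± 0.24, adjusted p = 0.0352), and Myod1, a determination factor of myoblasts (-0.47 ± 0.12, adjusted p = 0.0219). The list thus did not move as one.

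**Figure D4:**
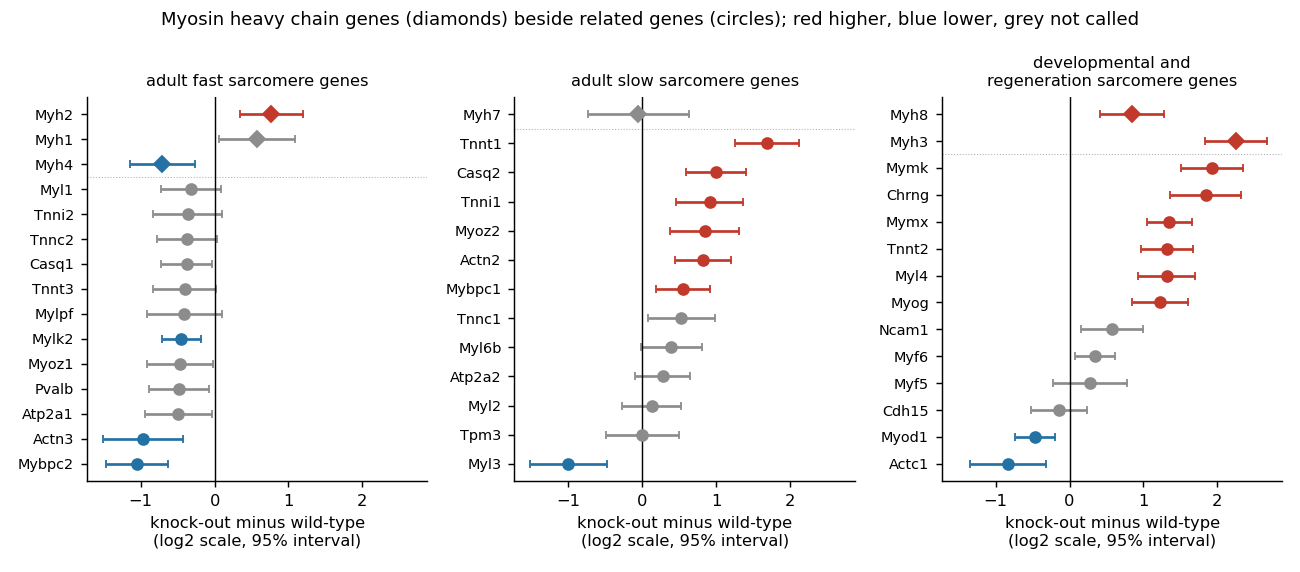
Knock-out minus wild-type differences (horizontal axis, log2 scale, with 95% intervals from limma) of adult fast, adult slow and developmental genes (circles) below the myosin heavy chain genes of the same class (diamonds). All 12 fast genes lie below 0 while Myh2 lies above it, Tnnt1 lies at 1.70 while Myh7 lies at -0.05, and Mymk at 1.93 is the circle nearest to Myh3 at 2.25.

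Of 14 genes for myosin folding and thick filament assembly, 1 rose, 3 fell and 10 were not called (median difference -0.28), and without wild-type mouse 3 the counts were 1 and 4 (median -0.21). Myom3, an M-band protein that crosslinks thick filaments, rose by 1.44 ± 0.15 (SE, adjusted p = 3.37e-05). Unc45b, the chaperone that folds the myosin head, fell by 0.40 ± 0.11 (SE, adjusted p = 0.0235). Trim55 and Trim54, which encode MuRF proteins of the M-band and microtubules, fell by 0.38 ± 0.08 (adjusted p = 0.00498) and 0.62 ± 0.19 (adjusted p = 0.0430). Trim63, a MuRF that ubiquitinates myosin heavy chain, had a difference of -0.27 (adjusted p = 0.299).

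Of 18 transcription factors and cofactors that act on myosin heavy chain genes, 3 rose, 2 fell and 13 were not called (median difference 0.033). Without wild-type mouse 3, 3 were called higher and 4 lower, and the median was -0.018. Sox6, a repressor of slow fiber genes, was between 12.22 and 12.28 in wild-type and between 11.64 and 11.88 in desmin knock-out mice and fell by 0.51 ± 0.08 (SE, adjusted p = 6.93e-04). Prox1, a homeobox factor needed for slow fibers, rose by 0.69 ± 0.10 (adjusted p = 5.94e-04). Tbx15, a factor of glycolytic fibers, fell by 0.40 ± 0.10 (adjusted p = 0.0163), and Vgll2, a cofactor of TEAD factors, rose by 0.63 ± 0.16 (adjusted p = 0.0164). Six4, a homeobox factor, rose by 0.43 ± 0.12 (SE, adjusted p = 0.0333).

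Of 6 other myosin heavy chain genes, 5 were tested and 1 rose. This was Myh10, the nonmuscle myosin IIB heavy chain, with 9.44 to 10.23 in wild-type and 10.39 to 10.83 in desmin knock-out mice (0.81 ± 0.16 SE, adjusted p = 0.00365). Myh13, the extraocular isoform at the end of the chromosome 11 cluster, was between 5.35 and 6.51 over all mice and differed by -0.12 ± 0.26 (SE, adjusted p = 0.791). Myh15 lay under the limit, with values of at most 1.47.

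Within the chromosome 11 cluster, 3 measured noncoding genes lie on the strand opposite to the myosin heavy chain genes. 2310065F04Rik, a long noncoding RNA between Myh3 and Myh2 (chr11:67112461-67120080), was between 12.43 and 13.01 in wild-type and between 11.93 and 12.01 in desmin knock-out mice and fell by 0.78 ± 0.11 (SE, limma, adjusted p = 2.6e-04). 9430073C21Rik, which overlaps 1838 bp at the end of Myh2, was between 6.29 and 6.94 in wild-type and between 7.52 and 8.06 in desmin knock-out mice and rose by 1.16 ± 0.14 (adjusted p = 9.27e-05). Myhas, an antisense gene that overlaps 13320 bp of Myh1 and whose start lies 456 bp before that of Myh4, differed by -0.47 ± 0.16 (SE, adjusted p = 0.0710) and did not pass the test. Without wild-type mouse 3 it differed by -0.55 (adjusted p = 0.0197), and over 18 alternatives the adjusted p ranged from 0.0111 to 0.162. The library kit keeps the strand, but the strand setting of the counting is not given in the sources used here, so reads of Myh2 and of its antisense partner cannot be told apart with certainty. Among the called genes, the direction thus changed along the cluster. It was higher for Myh3, lower for 2310065F04Rik, higher for Myh2 and 9430073C21Rik, lower for Myh4 and higher for Myh8. The uncalled genes Myh1 (0.58) and Myhas (-0.47) had the signs of Myh2 and of Myh4, and the call of Myh4 did not hold in every alternative. At the Myh7 and Myh6 genes, the antisense gene Mhrt was low, with at most 1.69, and was not called. The antisense genes Gm49130, Gm29015 and Gm31251 there had at most 1.16 and were not called either. Trpc4ap, which overlaps 37 bp at the end of Myh7b, differed by -0.13 ± 0.11 (SE, limma, adjusted p = 0.463). The microRNA genes within the members, Mir208a, Mir208b, Mir499 and Mir6923, were listed at 0 in all mice. So were Gm17428 within Myh7 and Gm26476 in the chromosome 11 stretch.

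**Figure D5:**
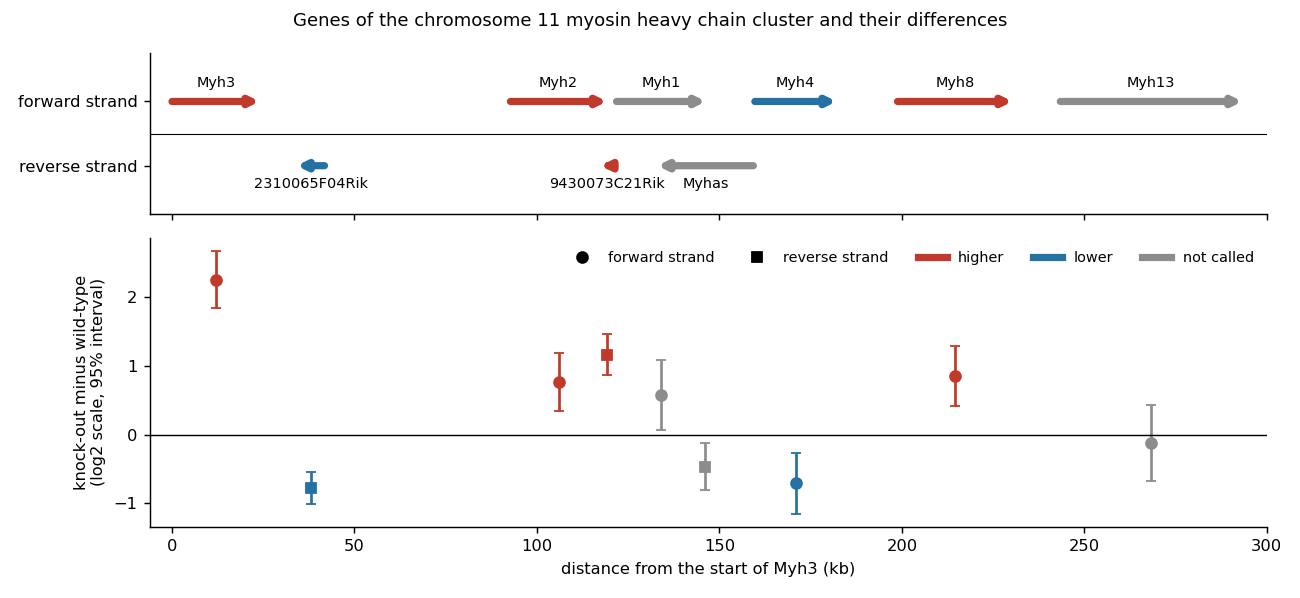
Top, genes of the chromosome 11 cluster drawn to scale by distance from the start of Myh3 (horizontal axis, kb), with arrows in the direction of transcription; bottom, their knock-out minus wild-type differences (log2 scale, 95% intervals from limma) at the middle of each gene. Called genes change direction along the stretch, from 2.25 for Myh3 to -0.78 for 2310065F04Rik, 0.77 for Myh2, -0.71 for Myh4 and 0.85 for Myh8.

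For each member past the test, the protein-coding genes with the most similar pattern were named by the root mean square difference of their centred rlog values over the 10 mice, among 12754 genes. For Myh4 they were Sra1 (0.121), Pla2g6 (0.122) and Pygm, the muscle glycogen phosphorylase (0.123). For Myh2 they were Wfs1 (0.166), Chrna1, the α subunit of the acetylcholine receptor (0.182), and Actn2 (0.185). For Myh3 they were Galnt5 (0.268), Ahnak2 (0.289) and Gnal (0.331), and for Myh8 Slc6a17 (0.222), Id2 (0.240) and Tnfrsf23 (0.242). The closest genes to Myh3 were farther from it than those of the other members, and this measure includes the difference between genotypes itself.

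Markers of other cells in the muscle were examined beside these changes. Of 5 markers of muscle spindles, whose fibers keep Myh3 and Myh8 in adult muscle, 4 were tested and 1 rose, Egr3 by 0.87 ± 0.12 (SE, adjusted p = 3.30e-04). Their summed level (log2) was 8.18 to 8.33 in desmin knock-out and 7.93 to 7.98 in wild-type mice, without overlap. This sum rests mostly on Etv1 and Etv4, the markers with the highest levels. They were not called by limma, with differences of 0.43 (adjusted p = 0.119) and 0.29 (adjusted p = 0.275). Ntf3 differed by -0.10 and Gdnf, under the expression limit, by 0.087, so that the markers did not rise as one. Of 5 satellite cell markers 1 rose, Chodl by 0.89, whereas Pax7 differed by 0.015 (adjusted p = 0.956), and the summed levels overlapped. Of 5 fibroblast markers 2 rose, Lum by 0.99 and Col1a1 by 0.50. Dcn (0.40), Dpt (0.16) and Pdgfra (0.078) were not called, and the summed fibroblast levels overlapped. Of 5 endothelial markers 3 fell, Pecam1 by 0.49, Cdh5 by 0.52 and Tek by 0.41, while Kdr and Emcn were not called. Over all tested genes, 7.70% were called higher and 5.99% lower. The summed endothelial level was 11.47 to 11.97 in desmin knock-out and 11.98 to 12.32 in wild-type mice. None of the 5 markers each of macrophages, Schwann cells, adipocytes and smooth muscle was called by limma, and 0 of them passed an unadjusted p of 0.05. The part of these cells in the changes of the myosin heavy chain genes was not tested.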

How the data were processed

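RNA was extracted with Trizol and a column kit and sequenced after stranded mRNA library preparation. The submitters' processing notes name cutadapt 2.5, STAR 2.5.4a, Subread 1.6.1 with featureCounts, DESeq2 and GRCm38. The values deposited by the authors are log2-scale rlog values. Counts were not used, so depth, counting error and the rlog settings are unknown, and limma took the place of a count model.

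Symbols were found for 54079 of 54232 genes in GENCODE M21. The test (limma 3.58.1, R 4.3.3, lmFit and eBayes with a trend, two-sided, no covariate, 95% intervals, Benjamini-Hochberg) took in the 14289 genes whose average over all 10 mice reached log2(10). Members and pairs were also tested with exact permutation tests over mice (scipy 1.17.1, 252 splits). Scripts were tested on simulated data. The members, lists and tests were chosen with earlier results of these data known.

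The rule for named genes took the members, Des, Myh13, Myh15, genes that overlap a member, up to 4 called genes per list by smallest adjusted p, and the 3 genes closest to each called member. Other genes with values were named after their values had been seen. The values of 1 gene of the regulator list are not reported here.

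Alternatives were an expression limit of none or log2(50), quantile normalization, median centring, sample weights, a single prior variance, the replicate number as a block, shares without division by length, and leaving out each mouse. Removal of trends on length and GC content (available for 99.9% of tested genes), the principal transcript length and list medians without wild-type mouse 3 were chosen after seeing the data. Promoter sequences (32851 windows) were those of RefSeq, and all 8 members matched. No 2 columns were identical, and the closest differed with an SD of 0.0919 over genes above 12.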

Additional observations from a re-analysis of the deposited data

Results flagged for a closer look

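In 46 groups of 5 values, 2 had a mouse far from the other mice by Dixon's criterion, and chance gives about 1 in 20, or 2.3 of 46. Both were desmin knock-out mouse 1. Its share of Myh8 in the summed per-kb level was 0.0245%, compared with 0.0143% to 0.0166% in the other knock-out mice. Its share of Myh6 was 0.00208%, compared with 0.00129% to 0.00151% in the other knock-out mice. Without this mouse, Myh8 was still called higher, with a difference of 0.66.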

How the results depend on the processing

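Myh3 and Myh8 were called higher under all 18 alternatives, and the calls of 2310065F04Rik and 9430073C21Rik did not change either. Without a limit on expression, Myh4 (-0.71, adjusted p = 0.128) and Myh2 (0.77, adjusted p = 0.0650) were not called, and the members called lower came to 0. This alternative also gave 1 lower adult fast gene, 0 lower adult slow genes, 1 lower developmental gene and 1 higher regulator. With a limit of log2(50), 3 developmental genes were higher of 8 tested, and Myh6 fell below the limit. Under quantile normalization the differences were -0.36 for Myh4, 0.85 for Myh1 (called) and 0.0061 for Myh7 (sign reversed), 0 members were called lower, and the share differences were 0.000256 for Myh6, 0.000363 for Myh7b, 0.0326 for Myh3 and 0.00709 percentage points for Myh8. Sample weights gave 2093 higher and 2127 lower genes in place of 1100 and 856, called Myh1 (0.53), reversed Myh6 (-0.037) and Myh7b (-0.025), and gave 5 lower adult fast, 8 lower folding, 6 lower regulator and 2 lower other myosin genes. The share difference of Myh8 was 0.0192 percentage points without division by length and 0.0189 with the principal transcript length, compared with 0.0102. The causes were not tested.

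Nothing in the labels says that the replicate numbers pair the mice. Correlations of same-numbered deviations were 0.0299, -0.219, 0.0119, -0.15 and 0.0673, and no mouse matched its own number best. Such correlations cannot show whether same-numbered mice shared a litter or a day of handling. With the replicate number as a block, Myh4 (-0.71) had an adjusted p of 0.0706, 0 members were called lower, and 913 genes were higher and 666 lower. In the same block, the pair shifts of 1.41, 1.47 and 1.29 had an exact p of 0.0625, the smallest that 5 pairs allow (adjusted p = 0.146).

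With 1 mouse left out, differences ranged from -0.79 to -0.61 for Myh4, 0.67 to 0.88 for Myh2, 0.47 to 0.79 for Myh1 and -0.34 to 0.17 for Myh7, which turned positive without knock-out mouse 2, 4 or 5 or wild-type mouse 3. Myh13 ranged from -0.32 to 0.040. Members called lower ranged from 0 to 1. Genes called ranged from 827 to 1335 higher and from 560 to 1159 lower, with 560 without knock-out mouse 5. Counts ranged from 1 to 3 lower adult fast genes, 0 to 2 lower developmental genes, 1 to 4 lower folding genes, and 1 to 4 higher and 1 to 4 lower regulators. The lowest list counts came without knock-out mouse 2, 4 or 5 or wild-type mouse 2. Myhas was called without knock-out mouse 3, wild-type mouse 2 or wild-type mouse 3. Depth is unknown, so low members such as Myh6 carry an unknown counting error.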
